A study of Drosophila melanogaster with 6 samples.

Results

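The mitochondrially encoded genes were examined in RNA sequencing of *Drosophila melanogaster* heads, as all rows of the deposited count files whose FlyBase symbol starts with "mt:". The rule found 37 of the 17559 gene rows, and all 37 were at 0 counts in every one of the 6 libraries. No level, share or difference between groups could therefore be measured for any of them, and the rows are described here as listed at 0, not as genes without transcripts. The libraries form 2 control groups of 3 biological replicates each, made from pools of 35 to 40 heads of females of the VDRC stock background *w*[1118] (v60000) that carried the pan-neuronal driver *Elav-GAL4* and no RNAi construct. The Dicer2 25C control (driver *w*[1118],*Elav-GAL4*/*w*[1118] with *UAS-Dicer2*/+ added) was reared at 25°C. The RT control (the same driver genotype, without *UAS-Dicer2*) was kept at room temperature, so transgene and temperature cannot be told apart between the groups. The methods list separate *Elav-GAL4* stocks with and without *UAS-Dicer2*, and a listed stock with it also carries *mcd8-GFP*. The source of the driver, and this further transgene, may therefore differ as well. They could not be told apart from *UAS-Dicer2* and temperature. The driver acts in neurons while the RNA came from whole heads, which also hold muscle, fat body, glia and eye tissue.

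The animal mitochondrial genome is a small circular DNA inside the organelle, separate from the nuclear chromosomes. It encodes core subunits of respiratory complexes I, III and IV and of the ATP synthase (complex V), together with the rRNAs and tRNAs with which the mitochondrion translates them. Its strands are transcribed into long precursors that are cut at the tRNAs, and the mRNAs carry short poly(A) tails. All other respiratory subunits are encoded in the nucleus and imported, and complex II has no mitochondrially encoded subunit. Mitochondrial transcripts are usually abundant in tissues with a high demand for ATP, such as muscle and photoreceptors, and poly(A) RNA was the molecule sequenced here.

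In the BDGP6.54 annotation the 37 genes comprised 13 protein-coding genes, 2 rRNA genes and 22 tRNA genes. They lay on the mitochondrial sequence (named mitochondrion_genome), 23 on the plus strand and 14 on the minus strand, and had no introns. Together they covered 14726 bases, which was 98.7% of the 14916 bases before *mt:ori*, the control region that the annotation places from 14917 to 19524. *mt:ori* is annotated under the same prefix but has no row in the count files, so it is not among the 37.

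Complex I, the NADH dehydrogenase that feeds electrons into the chain, had 7 of the members, from 291 to 1717 bases long. *mt:ND2* (FBgn0013680, from 240 to 1263), *mt:ND3* (FBgn0013681, from 5608 to 5961) and *mt:ND6* (FBgn0013685, from 9971 to 10495) lay on the plus strand. *mt:ND5* (FBgn0013684, from 6409 to 8125), *mt:ND4* (FBgn0262952, from 8207 to 9545), *mt:ND4L* (FBgn0013683, from 9545 to 9835) and *mt:ND1* (FBgn0013679, from 11721 to 12659) lay on the minus strand. Each of the 7 rows held 0 counts in replicates 1, 2 and 3 of the Dicer2 25C control and 0 counts in replicates 1, 2 and 3 of the RT control. Rows of both strands were therefore alike in this respect.

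The same values were listed for the other protein-coding members, all on the plus strand. *mt:Cyt-b* (FBgn0013678, from 10499 to 11635), the cytochrome that carries the quinone sites of complex III, was at 0 in all 6 libraries. The rows for the catalytic core of cytochrome oxidase, *mt:CoI* (FBgn0013674, from 1474 to 3009), *mt:CoII* (FBgn0013675, from 3083 to 3767) and *mt:CoIII* (FBgn0013676, from 4736 to 5524), were at 0 in all 6 as well. So were those for the membrane subunits of the ATP synthase, *mt:ATPase8* (FBgn0013673, from 3907 to 4068) and *mt:ATPase6* (FBgn0013672, from 4062 to 4736). *mt:CoI*, at 1536 bases among the longest members, and *mt:ATPase8*, at 162 bases the shortest protein-coding member, did not differ in their counts.

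The rRNA rows, *mt:lrRNA* (FBgn0013686, from 12735 to 14058, minus strand) of the large mitochondrial ribosomal subunit and *mt:srRNA* (FBgn0013688, from 14131 to 14916, minus strand) of the small subunit, were at 0 in each of the 6 libraries. The 22 tRNA genes, 14 on the plus strand and 8 on the minus strand, were between 62 and 72 bases long and so all shorter than the reads of 100 bases. They ran from *mt:tRNA:Ile-GAT* (FBgn0013696, from 1 to 65) to *mt:tRNA:Val-TAC* (FBgn0013708, from 14059 to 14130, between the rRNA genes), with a cluster from *mt:tRNA:Ala-TGC* (FBgn0013689, start 5983) to *mt:tRNA:Phe-GAA* (FBgn0013693, end 6408). All 22 rows were at 0 in all libraries. Over all classes, 222 of 222 values of a member in a library were 0.

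The depth behind these values was high. The gene rows of a library summed to between 18651266 and 25183878 counts in Dicer2 25C libraries and between 33898008 and 42487803 counts in the RT control. As a fixed allowance for counting error, the limit for a row at 0 was set at 3 counts, and no confidence level was computed for it. This corresponds to between 0.0706 and 0.161 CPM for a single row. For all 37 rows together, 3 counts make an upper limit on the mitochondrial share of between 7.06e-06% and 1.61e-05% of a library's gene counts. Pooled over the 177090295 counts of the 6 libraries, the limit was 0.0169 CPM. These limits cover counting error only. They bound the reads that entered these rows, not the transcripts in the heads.

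Since no member held a count, none entered a test. The quasi-likelihood test of edgeR compared the Dicer2 25C control with the RT control at 10187 genes, 0 of them members, so 0 members could pass at an adjusted or an unadjusted p under 0.05. Over all genes tested, 10.1% passed with p-values under 0.05 after Benjamini-Hochberg adjustment, and 2.82% passed with an absolute log2 fold change above 1 as well. No member entered the fit of DESeq2 or the likelihood ratio test of edgeR either. Differences in the mitochondrial share between the groups, and in the balance of rRNA, tRNA and mRNA or of the strands, could not be computed. The label check by *Dcr-2*, the gene that *UAS-Dicer2* supplies, gave 623, 609.8 and 539 CPM (of library totals) in the Dicer2 25C control, against 57.7, 55.2 and 55.3 CPM in the RT control.

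Rows at 0 were also counted over the rest of the table. Of the 17522 other rows, 1761 (10.1%) were at 0 in all 6 libraries, against 37 of 37 mitochondrial rows. On the chromosome arms and the X the share ran from 7.77% (X) to 13.4% (2L), and on chromosome 4, with 110 rows, it was 0.909%. Higher shares were found for the Y chromosome, at 50 of 71 rows in these female heads, for the rDNA sequence, at 15 of 19 rows, and for the unplaced scaffolds, at 12 of 18 rows. Among sequences with at least 10 rows (a minimum set after seeing the data), the mitochondrial genome was the one whose rows were all at 0. On 10 of the 16 unplaced scaffolds that had a row every row was at 0 too, but none of those 10 held more than 2 rows.

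**Figure D1:**
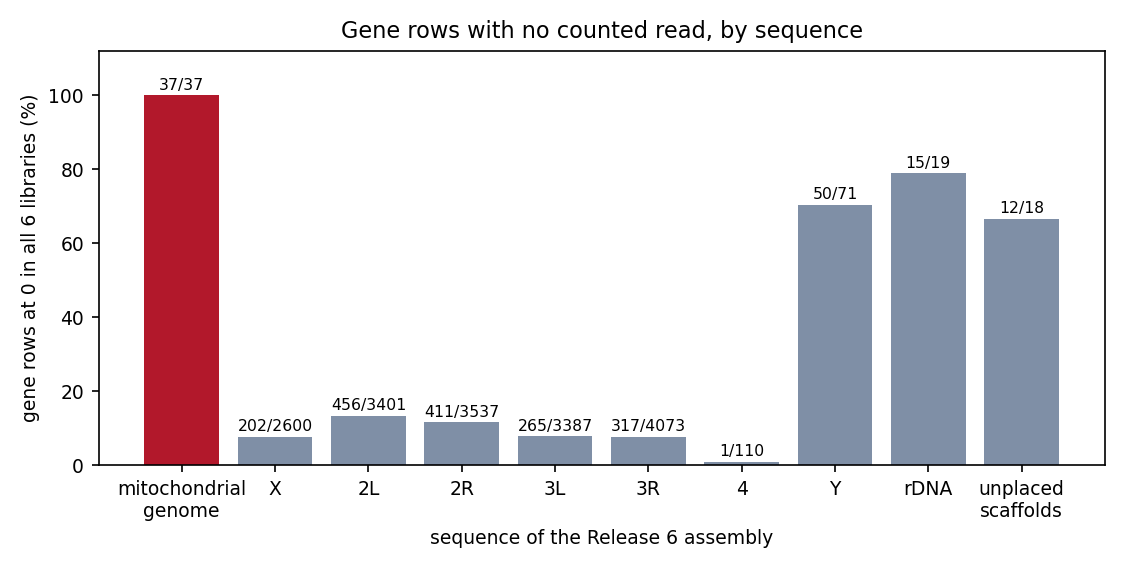
Share of gene rows at 0 counts in all 6 libraries (percent, vertical axis) for each sequence of the assembly, with the number of rows at 0 and of all rows above each bar. All 37 mitochondrial rows were at 0, against 7.77% to 13.4% of the rows on the X and the chromosome arms.

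All 37 members were alike at 0, so their classes differed only in the nuclear genes of the same kind set beside them. Zeros were rarer among nuclear protein-coding genes than among nuclear RNA genes. Of 13672 nuclear protein-coding rows, 748 (5.47%) were at 0 in all libraries. Among the 6802 of them with an exon length within the 162 to 1717 bases of the 13 protein-coding members, 544 (8.0%) were at 0. For RNA genes, zeros were common in the nucleus as well, with 239 of 290 nuclear tRNA rows (82.4%) and 111 of 113 nuclear rRNA rows (98.2%) at 0. The values of the mitochondrial tRNA and rRNA rows were thus those of most nuclear rows of their class, while those of the 13 mRNA rows were not. The class is a loose match for the RNA genes. Many nuclear tRNA and rRNA genes belong to families of near-identical copies, while the mitochondrial genes are not copies of each other. A like share at 0 therefore does not make the rows of the classes alike.

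Stretches of neighbouring rows at 0 occurred elsewhere in the genome. In order along the mitochondrial sequence, the run at 0 was 37 rows long, from *mt:tRNA:Ile-GAT* to *mt:srRNA*, which was its whole length. Longer runs lay on 2R, where 94 rows of tRNA and 5S rRNA genes ended at *5SrRNA:CR33364*, and on 2L, where 72 rows of the histone gene repeats ended at *His3:CG33833*. These are families of near-identical copies, whose reads can align to several places. The longest runs on 3R, 3L, X, Y, chromosome 4 and the rDNA sequence were 12, 7, 8, 10, 1 and 13 rows. Over protein-coding rows alone the mitochondrial run was 13 rows long. It was shorter than runs of 57 rows on 2L, of histone genes, and 16 rows on 3R, from *pre-mod(mdg4)-H* to *pre-mod(mdg4)-W*. The mitochondrial genes are not copies of each other, and whether nuclear copies of mitochondrial DNA gave their reads a further place to align was not tested, since no genome sequence was used.

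Overlap with other genes was a further property on which the members could be compared, since the files hold a separate class for reads that matched more than 1 gene, which enter no row. Which overlaps, and on which strands, sent a read to that class is not given in the sources used here. The members shared few bases. *mt:ATPase8* and *mt:ATPase6* overlapped by 7 bases, *mt:ATPase6* and *mt:CoIII* by 1, *mt:ND4* and *mt:ND4L* by 1, and the tRNA genes *mt:tRNA:Trp-TCA* and *mt:tRNA:Cys-GCA*, on opposite strands, by 8. The other 30 members shared no base with another gene. The lowest unshared share among the protein-coding and rRNA members was 95.7%, for *mt:ATPase8*, with 155 of its 162 bases. Of the 13198 nuclear protein-coding rows with at least 155 unshared bases, 439 (3.33%) were at 0, and of the 354 with no unshared base, 278 (78.5%) were.

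The count files also record the reads that were put on no gene, and the members' reads, if aligned, could have been among them. Of all reads aligned to a unique place, 3.46% to 4.76% were assigned to no gene in Dicer2 25C libraries, against 3.16% to 3.66% in RT libraries. Since the strand and overlap settings are not given, these reads need not lie outside genes. The share ambiguous between genes was 2.36% to 3.62% in Dicer2 25C libraries, against 2.39% to 3.08% in RT libraries. Alignments that were not unique numbered 69361668, 8428951 and 7873862 in the Dicer2 25C libraries (replicates 1, 2 and 3), against 8454145, 7164088 and 7876156 in the RT libraries. Replicate 1 of the Dicer2 25C control thus stood apart in this class, while its mitochondrial rows were at 0 like those of the other libraries. The class of unaligned reads was 0 in all 6 libraries, so the files carry no number for reads that found no place in the reference. None of these classes is split by chromosome, and how many of their reads were mitochondrial was not tested.

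**Figure D2:**
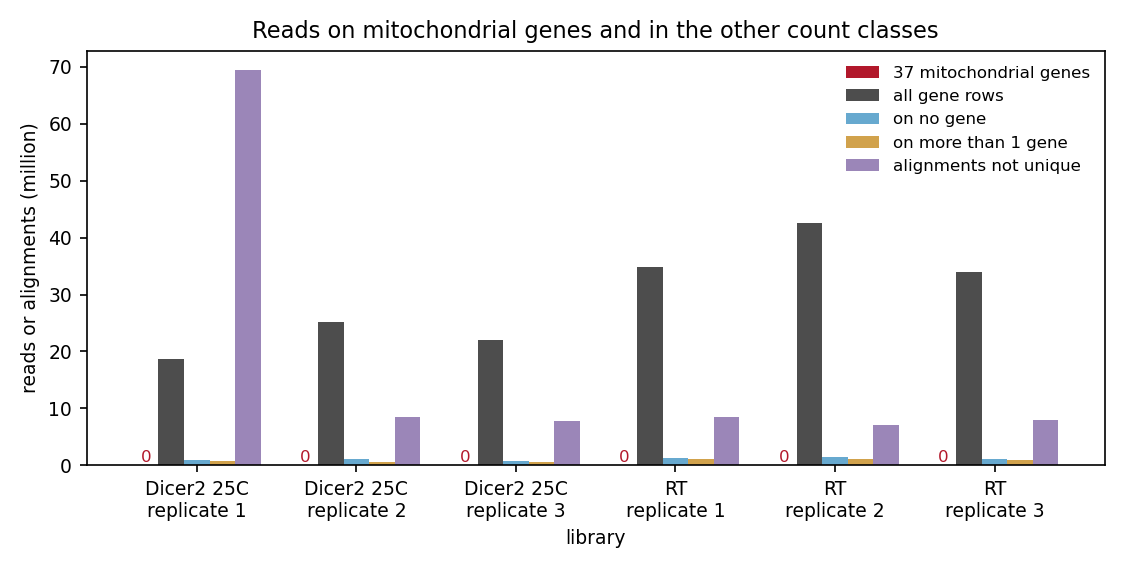
Reads or alignments (in units of 1e6, vertical axis) in each library on the 37 mitochondrial genes, on all gene rows, assigned to no gene, on more than 1 gene, and not unique. The mitochondrial bars are at 0 in all 6 libraries, while the gene rows summed to 18.7 to 42.5 on this axis.

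Most nuclear partners of the members in the same complexes were counted at high levels, given here as CPM of library totals per kilobase of exon. They were chosen by symbol, and rows with few counts were among them, also among those counted in every library. *UQCR-6.4L* held 1, 3 and 1 counts in replicates 1, 2 and 3 of the Dicer2 25C control. In each RT library it held 2. For complex I, 34 of 40 nuclear rows held counts in every library, with a median level of 167 in Dicer2 25C heads and 139.8 in RT heads, beside 7 mitochondrial rows at 0. For complex III, 11 of 12 nuclear rows did so, with medians of 333 in Dicer2 25C heads and 241 in RT heads, beside *mt:Cyt-b* at 0. Complex IV had 16 of 18 nuclear rows counted throughout, with medians of 316 in Dicer2 25C heads and 251 in RT heads, beside 3 mitochondrial rows at 0. Complex V had 15 of 17, with medians of 488 in Dicer2 25C heads and 384 in RT heads, beside 2 mitochondrial rows at 0. On the same scale, 3 counts would amount to at most 0.993 for *mt:ATPase8* and at most 0.105 for *mt:CoI* in the shallowest library. No fold between nuclear and mitochondrial subunits is given, since the mitochondrial rows carry no count.

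**Figure D3:**
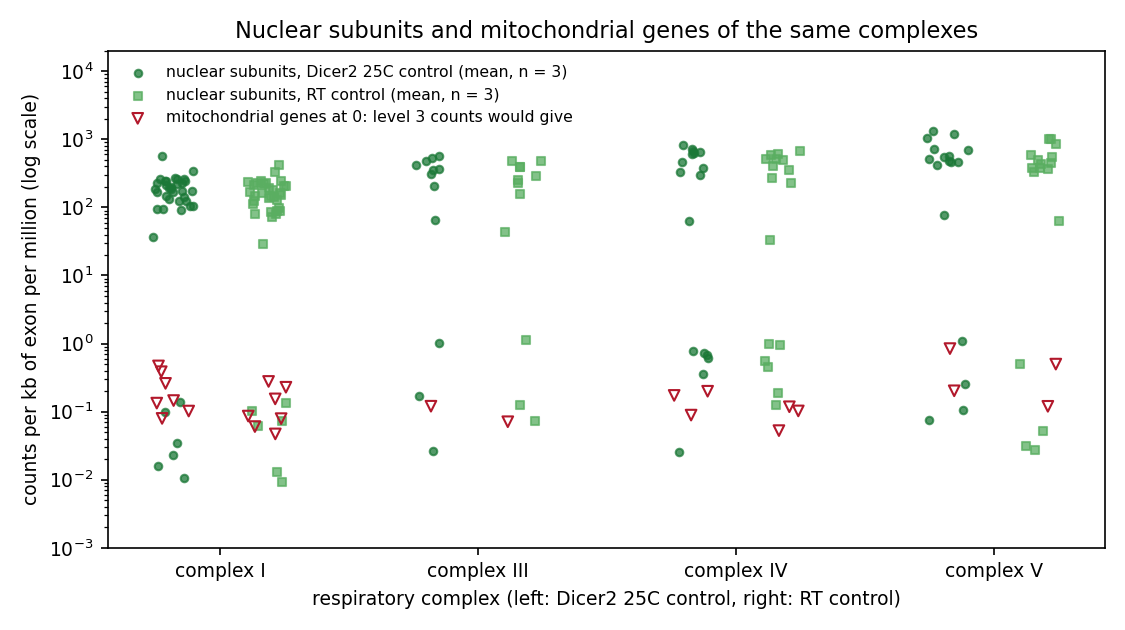
Level of each nuclear subunit of complexes I, III, IV and V (CPM of library totals per kilobase of exon, log axis; mean of 3 libraries; Dicer2 25C control left, RT control right), with open triangles at the level that 3 counts would give each mitochondrial gene at its group's mean depth. Most nuclear subunits lie above 10 and all 13 triangles of each group below 1; subunits at 0 in a group are not drawn.

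The nuclear genes that transcribe, process and replicate the mitochondrial genome were given by a list of 26 genes, of which 25 had a row. Of these, 3 were at 0 in all libraries: *PolG2*, the accessory subunit of the mitochondrial DNA polymerase, *SLIRP1*, a partner of the RNA-binding protein *bsf*, and *mtTFB1*, an rRNA methyltransferase. All 3 differed from the members in that 0 of their 1570, 1352 and 1529 exon bases were unshared with another gene. Of the 22 that were tested, 1 was higher and 1 lower in Dicer2 25C heads at an adjusted p under 0.05 by edgeR's quasi-likelihood test (9.09%, against 10.1% of all genes tested), and 5 had an unadjusted p under 0.05 (22.7%, against 30.7%). Both shares were near or below the background, and the median log2 fold change was -0.05, against 0.00 over all genes tested. *PolrMT*, the mitochondrial RNA polymerase, was at 46.7, 48.2 and 46.1 CPM (TMM-scaled) in the Dicer2 25C control, against 58.1, 56.2 and 56.2 CPM in the RT control. The log2 fold change was -0.27 (standard error 0.06, edgeR adjusted p = 0.0358). *mtTFB2*, a factor the polymerase needs to start at a promoter, was at 13.5, 12.7 and 13.1 CPM in the Dicer2 25C control, against 10.8, 10.4 and 9.87 CPM in the RT control (log2 fold change 0.34, standard error 0.08, edgeR adjusted p = 0.0403). Both calls were lost without replicate 1 or 2 of the Dicer2 25C control and without replicate 2 or 3 of the RT control. The adjusted p of edgeR's quasi-likelihood test then rose to at most 0.129 for *PolrMT* and 0.138 for *mtTFB2*. Both were also lost with the likelihood ratio test and with the replicate number as a block. *PolrMT* was also not called under upper quartile scaling or library totals, nor *mtTFB2* without an expression filter.

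Of the nuclear respiratory subunits, 2 were at 0 in all libraries. *ND-MNLL* had 0 of its 720 exon bases unshared with another gene, but *COX6AL2* had 1032 of 3130. Of the 74 nuclear respiratory subunits that were tested, 1 was higher in the Dicer2 25C control and 0 were lower (1.35%, against 10.1% of all genes tested), while 19 had an unadjusted p under 0.05 (25.7%, against 30.7%). Their median log2 fold change was 0.16, and 67 of the 74 had a positive one, against 5144 of the 10187 genes tested. The called gene was *sun*, the epsilon subunit of the ATP synthase, at 246, 253 and 211 CPM in the Dicer2 25C control, against 182, 158 and 167 CPM in the RT control (log2 fold change 0.49, standard error 0.10, edgeR adjusted p = 0.0338); it lost its call without the same 4 libraries (adjusted p up to 0.132). The count depended on the scaling, with 14 subunits called under upper quartile scaling and 27 under library totals, which move the median of all genes by 0.05 and 0.10 and the share of calls that are higher in the Dicer2 25C control to 62.0% and 72.9%, against 47.8% with TMM. Muscle markers had the sign of most of this list: 5 of 5 tested had a positive fold change, but 0 were called. Their sum was 6013 to 11423 CPM in the Dicer2 25C control, against 4615 to 6079 CPM in the RT control, and these ranges overlap. Photoreceptor markers likewise were positive at 5 of 5 and summed to 65762 to 84221 CPM in the Dicer2 25C control, against 52301 to 55037 CPM in the RT control. Neuron markers were positive at 5 of 5 as well, with sums of 3391 to 4465 CPM in Dicer2 25C libraries, against 3140.2 to 3321 CPM in RT libraries. Fat body markers went the other way, with 0 of 5 positive and 2 called lower (40.0%, against 10.1% of all genes tested). Their sums were 16776 to 26778 CPM in Dicer2 25C libraries, against 32375 to 47718 CPM in RT libraries. Glia markers were also positive at 0 of 5, with overlapping sums of 1784 to 2309 CPM in Dicer2 25C libraries, against 2066 to 2594 CPM in RT libraries. Of the photoreceptor, neuron and glia markers, 0 were called. The marker sums are CPM of library totals, while the CPM of *sun* are TMM-scaled like the fold changes. The part of these markers in the nuclear values was not tested. Fewer cells of a type and less RNA per cell cannot be told apart in whole heads. The members themselves give no value to set beside these nuclear differences.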

How the data were processed

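The authors deposited raw HTSeq read counts per gene, 1 file per library, without normalization or pooling. Single-end reads came from a stranded poly(A) kit. Per the submitters' processing notes, they were processed with Trimmomatic 0.36, TopHat2 2.1.0 and HTSeq 0.6.1. The reference was Release 6 of the fly genome and transcriptome. Whether its alignment index held the mitochondrial sequence, and the strand, overlap and multiple-alignment settings, are not given in the sources used here. FlyBase identifiers were matched to BDGP6.54, with 17253 of 17559 found and 306 not, and *bsf* had no row under its identifier. The members, lists and tests were chosen with earlier results of these data known. All member rows were to be named, with values per library for protein-coding and rRNA genes, and from the nuclear lists the genes called.

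Counts were tested across all genes with edgeR 4.0.16 (R 4.3.3; TMM, default expression filter, quasi-likelihood test), and the test was checked on simulated data. Standard errors were derived from the log2 fold change and the F statistic (size divided by the root of F). Floors used 3 counts. Unshared bases were exon bases under no other gene of the files on either strand. Levels per kilobase used exon length. Alternatives were RLE, upper quartile, library totals, nuclear genes only, other filters, the likelihood ratio test, DESeq2 1.42.0, the replicate number as a block, and each library left out. Whether p-values measure more than the spread between these pools was not tested.

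Other marker lists gave these summed levels: female germline, 22.0 to 24.8 CPM in Dicer2 25C libraries, against 20.1 to 24.4 CPM in RT libraries; heat shock, 87.6 to 114 CPM in Dicer2 25C libraries, against 44.0 to 3835 CPM in RT libraries; antimicrobial, 56.6 to 565 CPM in Dicer2 25C libraries, against 10.3 to 137 CPM in RT libraries. These sums are CPM of library totals. *Hsp22* was at 0, and *wupA*, *nos* and *vas* had no matched row.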

Additional observations from a re-analysis of the deposited data

How the results depend on the processing

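The count of members called was 0 under all 16 alternatives set for it, with 0 members tested in each. Of these, the stricter threshold of adjusted p under 0.01 was entered as 0 without a fit. The fit on nuclear genes only left the members out beforehand. The mitochondrial share and the mitochondrial counts per 100 nuclear counts were 0 under all 8 alternatives run for each. A void test says nothing about stability. Fold changes of single members and the composition of the mitochondrial counts gave no value under any setting. The 1030 genes called over the whole table became 1889 with DESeq2 and 172 with the replicate number as a block, and 44 to 1944 with a library left out (183, 44 and 1944 without replicates 1, 2 and 3 of the Dicer2 25C control, 160 and 88 without replicates 2 and 3 of the RT control). The 2 nuclear genes of mitochondrial gene expression became 1 with library totals, 4 with DESeq2, 0 with the replicate block and 0 to 3 with a library left out. Under settings that also called 2, they were not always *PolrMT* and *mtTFB2*: the likelihood ratio test called *ClpX* and *scu*, upper quartile scaling *mtTFB2* and *ClpX*, and the fit without a filter *PolrMT* and *ClpX*. In replicates 1, 2 and 3 of the RT control, *scu* was at 310, 127 and 138 CPM (TMM-scaled) and *ClpX* at 235, 174 and 182 CPM. With replicate 1 of the RT control left out, *ClpX* was called and *scu* was not. The 1 nuclear respiratory subunit became 14 with upper quartile scaling, 27 with library totals, 2 without an expression filter, 4 with at least 10 counts in every library, 3 with the likelihood ratio test, 14 with DESeq2, 0 with the replicate block and 0 to 21 with a library left out. The causes of these shifts were not tested. Deviations of same-numbered libraries correlated at -0.08, 0.00 and 0.01. The labels name no pairing beyond the number, and whether same-numbered libraries shared a batch was not tested. Depth bears on the members only through the floor of 3 counts, in libraries of 18651266 counts or more.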
